A study of Mus musculus with 2 samples.

Results

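The genes described here are 10 secreted factors that are studied as drivers or brakes of liver scarring: Tgfb1, Tgfbi, Pdgfa, Pdgfb, Pdgfc, Areg, Igf1, Osm, Thbs1 and Timp1. They were chosen by symbol, and each had exactly 1 row among the 27998 genes listed in both deposited matrices. The data are single-cell RNA counts of non-parenchymal cells, obtained by perfusing the liver and spinning the suspension on a density gradient, a fraction of immune cells, endothelium and stroma depleted of hepatocytes. Both libraries came from mice kept for 8 weeks on MCD diet, a feed lacking methionine and choline that produces fat, inflammation and scarring in the liver. The PKM2ΔMAC library (ΔMAC library below) came from mice labelled as lacking, in macrophages, PKM2, an isoform of the pyruvate kinase encoded by Pkm. The PKM2FL/FL library (FL/FL library below) came from mice with the floxed allele, which the deletion also requires. There was 1 library per genotype, the number of mice behind each is not given in the sources used here, and neither is the Cre driver, the age or the strain. No test between genotypes was therefore possible. The question put to the counts was which non-parenchymal cells carry each factor, and how its level in those cells compared between the libraries.

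Scar in the liver is laid down mainly by stellate cells and portal fibroblasts, which become matrix-producing cells under transforming growth factor beta and platelet-derived growth factors. Transforming growth factor beta is secreted in a latent form, and thrombospondin 1, integrins and proteases release it. Platelet-derived growth factors signal through receptors on the stromal cells, amphiregulin through the epidermal growth factor receptor, oncostatin M through receptors that contain gp130, and insulin-like growth factor 1 through its own receptor. TIMP1 is an inhibitor of the metalloproteinases that degrade matrix, and its induction is a classical sign of activated stellate cells.

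After filtering, 8530 cells of the ΔMAC library with 40316664 UMIs and 9482 cells of the FL/FL library with 49604395 UMIs remained. A UMI is a unique molecular identifier and stands for 1 captured transcript. The median cell held 3713.5 UMIs in the ΔMAC library and 4376.5 UMIs in the FL/FL library, and 17 cell barcodes occurred in both libraries. Pkm, counted over all its isoforms, was at 172 CPM in the ΔMAC library and 259 CPM in the FL/FL library over all cells, and the counts do not separate the PKM2 isoform. Lyz2, a lysozyme of myeloid cells, was at 4.74 CPM in the ΔMAC library and 1209 CPM in the FL/FL library, and it was not used as a marker. CPM is the number of UMIs of a gene per 1000000 UMIs of the cells in question. Intervals in parentheses are exact 95% intervals, which reflect counting error alone and say nothing of how mice or preparations vary.

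Cells were put into classes by the number of distinct marker transcripts they held, and each class name below stands for cells like that type by transcripts alone. A class was given to 7123 cells (83.5%) of the ΔMAC library and 7971 cells (84.1%) of the FL/FL library. Of the rest, 1231 ΔMAC cells and 1300 FL/FL cells passed no gate, and 176 ΔMAC cells and 211 FL/FL cells held markers of several lineages and were set aside. The 13 classes that reached 50 cells both in the ΔMAC and in the FL/FL library were B, NK or ILC1, CD8 T, CD4 T, interleukin 17 type gamma-delta T, T with NK markers, other T, neutrophil, classical monocyte, Kupffer, plasmacytoid dendritic, type 2 dendritic and endothelial cells. Smaller classes are given with their number of cells. Stromal cells were few. There were 37 ΔMAC cells and 12 FL/FL cells in the stellate or fibroblast class and 35 ΔMAC cells and 9 FL/FL cells in the smooth muscle class. Values in these classes rest on little. The make-up of the stellate or fibroblast class also differed between the libraries. Its markers Reln, Colec11 and Lrat were at 298, 403 and 157 CPM in the ΔMAC library and 0, 81.8 and 65.5 CPM in the FL/FL library. Dcn, Col1a1, Col1a2 and Col3a1 were higher in the FL/FL library, and Lum was level. The part of this make-up in the levels of the class was not tested. Kupffer and endothelial cells were shallow, with a median of 1118 UMIs in ΔMAC Kupffer cells and 1072.5 UMIs in FL/FL Kupffer cells, and 924.5 UMIs in ΔMAC endothelial cells and 2044 UMIs in FL/FL endothelial cells. Kupffer cells carried their defining genes Clec4f, at 2289.8 CPM in the ΔMAC library and 1927 CPM in the FL/FL library, and Cd5l, at 4520.0 CPM in the ΔMAC library and 4397 CPM in the FL/FL library. Median depth was 2730 UMIs in ΔMAC and 3152.5 UMIs in FL/FL B cells, 4991.5 UMIs in ΔMAC and 5080 UMIs in FL/FL NK or ILC1 cells, 4998 UMIs in ΔMAC and 5122 UMIs in FL/FL regulatory T cells and 7850 UMIs in ΔMAC and 8523 UMIs in FL/FL classical monocytes.

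Each factor had its own pattern of cellular sources. Among the 8 members with at least 100 UMIs in both libraries together, the class of highest CPM among the 13 was the same in both libraries for 7, against 52.1% of the 11904 genes with as many UMIs. With each cell thinned to 500 UMIs the number of members was 4. Thinning drops most UMIs of the median cell. Thinned values here and below therefore rest on far fewer UMIs, carry more counting error and are given without an interval. With all UMIs, classical monocytes led for Tgfb1, Tgfbi and Thbs1, Kupffer cells for Igf1, neutrophils for Osm, plasmacytoid dendritic cells for Pdgfa and gamma-delta T cells for Areg. Pdgfb was the exception, with NK or ILC1 cells first in the ΔMAC library and Kupffer cells, on 8 UMIs, first in the FL/FL library. Pdgfc, with 40 UMIs in the ΔMAC library and 28 in the FL/FL library, and Timp1, with 13 UMIs in the ΔMAC library and 32 in the FL/FL library, were below the minimum. The class with the most UMIs of a member, small classes included, can differ from the class of highest CPM. For Tgfb1 it was B cells in both libraries. This class held a median over the 10 members of 30.6% of a member's UMIs in the ΔMAC library and 32.8% in the FL/FL library.

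**Figure D1:**
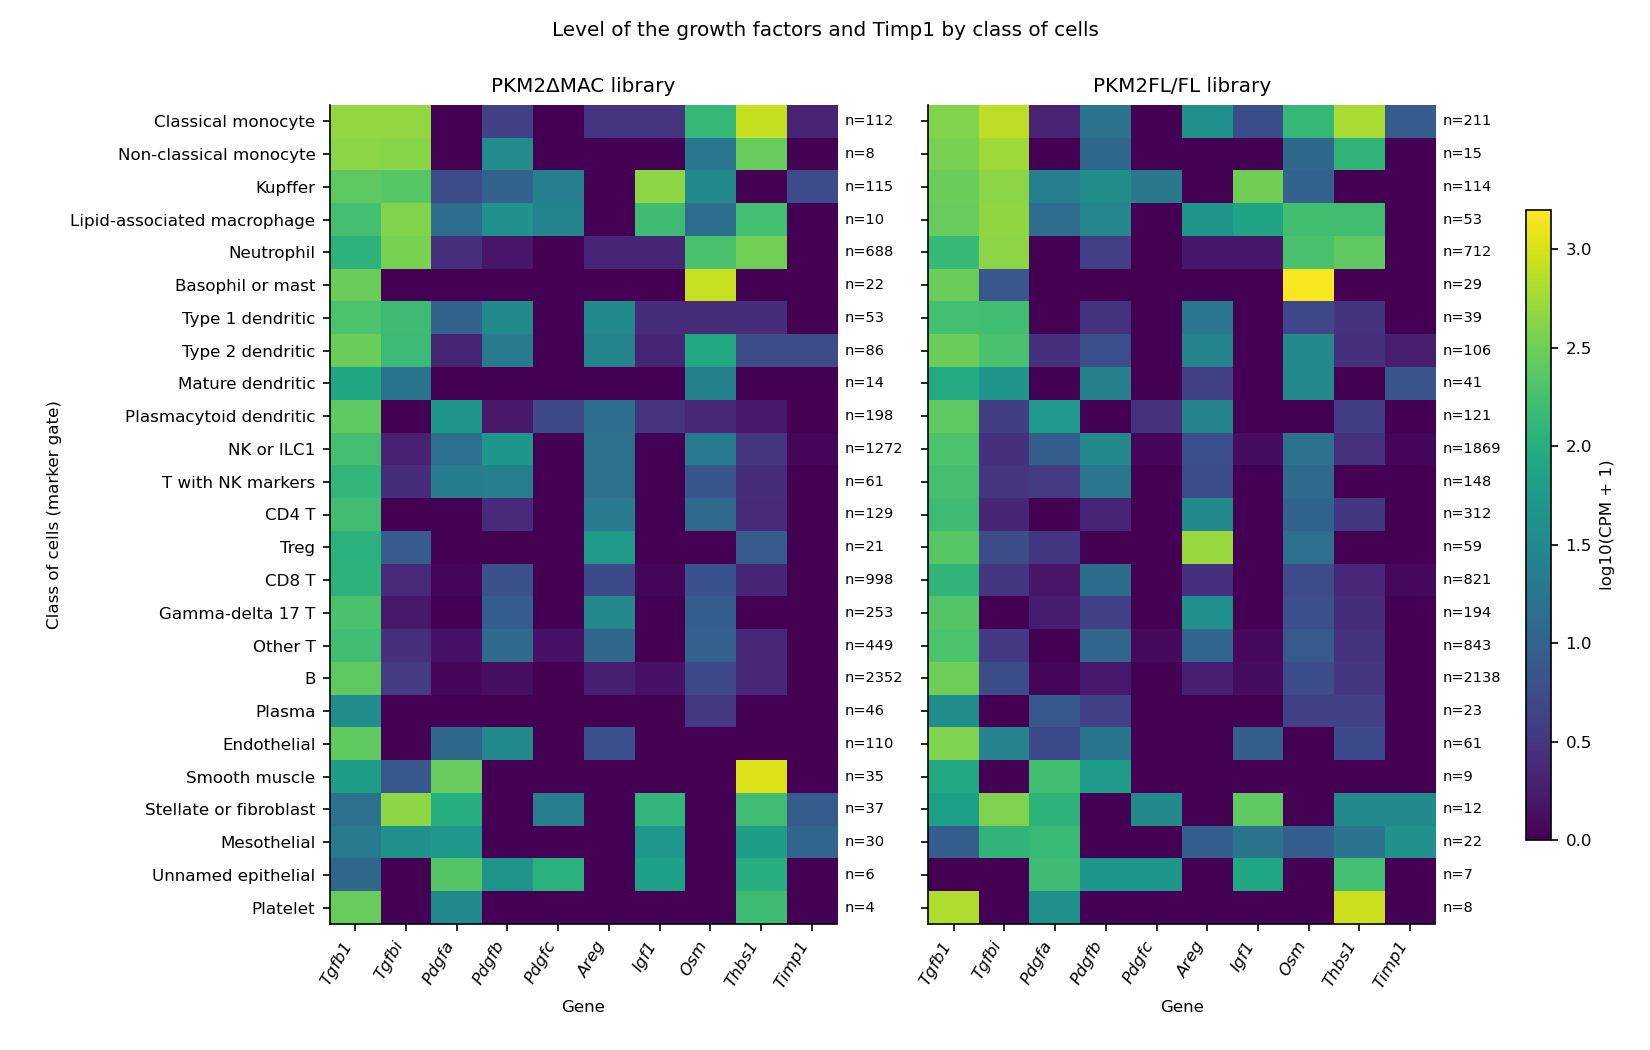
Level of each member, as log10(CPM + 1), in classes of liver non-parenchymal cells of the PKM2ΔMAC library (left) and the PKM2FL/FL library (right), with the number of cells beside each row; classes are marker gates, and rows with few cells rest on few UMIs. Tgfb1 is lit in nearly every row, Igf1 in Kupffer cells at 449 CPM (ΔMAC) and 316 CPM (FL/FL), and Timp1 is close to 0 almost everywhere.

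Grouped by lineage, monocytes, macrophages and neutrophils together were 10.9% of ΔMAC cells and 11.7% of FL/FL cells. They held 74.3% of the Thbs1 UMIs in the ΔMAC library and 80.7% in the FL/FL library. They held 65.2% of the Tgfbi UMIs in the ΔMAC library and 69.1% in the FL/FL library. Of the Igf1 UMIs they held 65.1% in the ΔMAC library and 60.6% in the FL/FL library, and of the Osm UMIs 43.0% in the ΔMAC library and 44.4% in the FL/FL library. T, NK and innate lymphoid cells carried the largest named part of Pdgfb, at 68.5% in the ΔMAC library and 66.7% in the FL/FL library, and of Areg, at 50% in the ΔMAC library and 51.0% in the FL/FL library. Of the Tgfb1 UMIs these cells held 37.9% in the ΔMAC library and 42.5% in the FL/FL library, close to their part of all cells, 37.4% in the ΔMAC library and 44.8% in the FL/FL library. Cells without a class held between 12.3% and 34.7% of a member's UMIs in the ΔMAC library and between 14.3% and 53.6% in the FL/FL library.

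**Figure D2:**
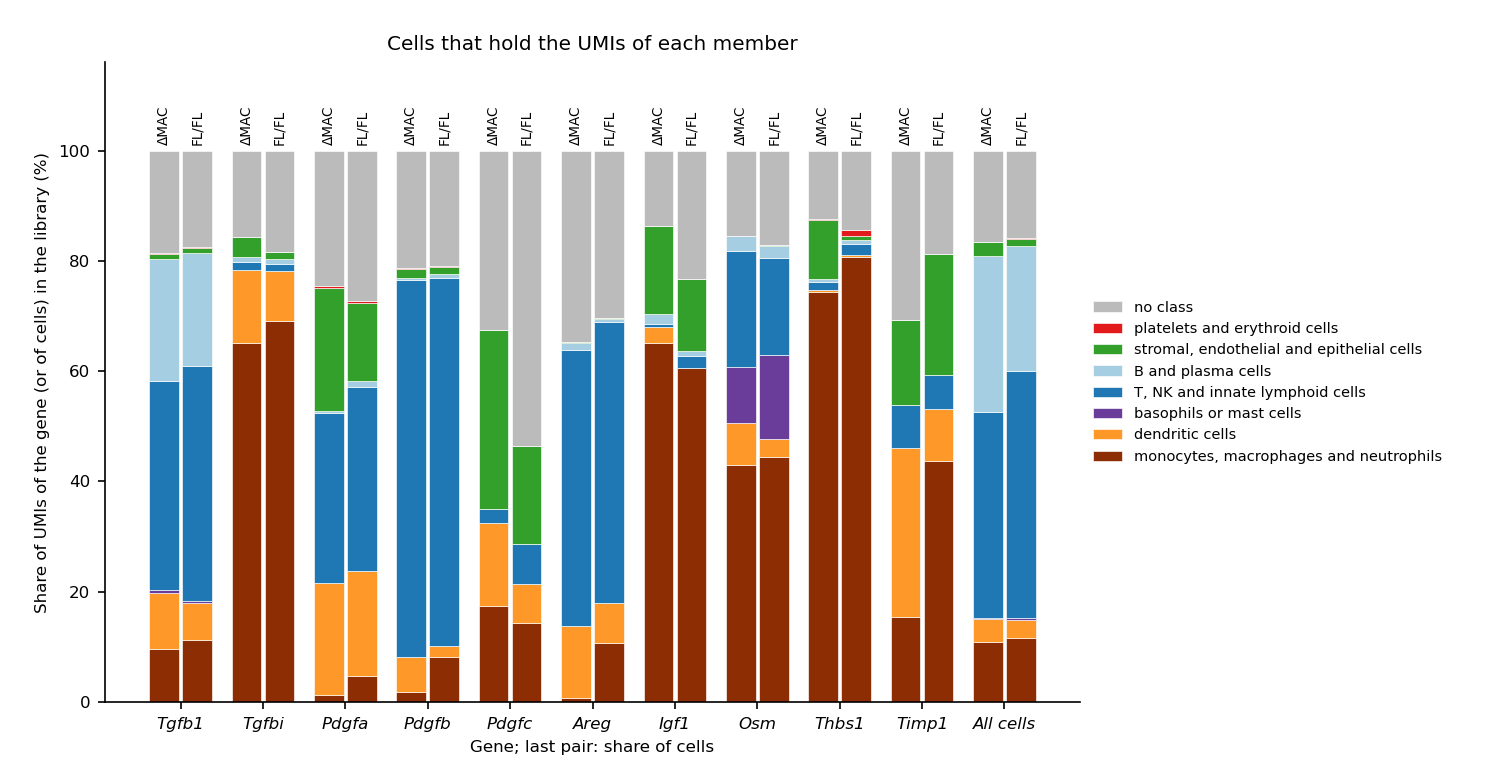
Share of the UMIs of each member (percent of the library's UMIs of that gene) held by 8 groups of cells, with the ΔMAC bar left of the FL/FL bar, and the share of cells as the last pair. Monocytes, macrophages and neutrophils hold most of Tgfbi, Igf1 and Thbs1 and little of Pdgfa and Pdgfb; the bars of Pdgfc rest on 40 UMIs (ΔMAC) and 28 UMIs (FL/FL) and those of Timp1 on 13 UMIs (ΔMAC) and 32 UMIs (FL/FL).

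The level of a member was compared between the libraries as the ratio of its CPM in the ΔMAC library over that in the FL/FL library. Over all cells, 1 of the 8 counted members was at least 1.5-fold higher in the ΔMAC library, Pdgfa, against 3.65% of 11904 genes, and 2 were at least as far lower, Tgfbi and Areg, against 4.75% of genes. The other 5 lay within 1.5-fold, and 8.4% of the 11904 genes were apart in either direction. Within the 13 classes, 29 pairs of a member and a class had at least 100 UMIs in both libraries together. Of these, 4 were higher in the ΔMAC library, against 2.81% of 54745 pairs over all genes, namely Pdgfa, Pdgfb and Areg in NK or ILC1 cells and Osm in type 2 dendritic cells. Another 3 were lower, against 6.8% of pairs, namely Tgfbi in classical monocytes and in Kupffer cells and Pdgfb in CD8 T cells. In either direction, 9.61% of the pairs over all genes were apart. Pairs share cells and members, and 1 library of each genotype stands behind all of them. In NK or ILC1 cells, where 5 members were counted and 3 were higher, 1.97% of 8669 genes were higher, and the median log2 ratio was 0.60 over the members and -0.06 over all genes. In classical monocytes, where 4 members were counted and 1 was lower, 6.55% of 3682 genes were lower, and in Kupffer cells, where 3 were counted and 1 was lower, 12.9% of 580 genes were lower. In CD8 T cells 7.96% of 7396 genes were lower, and in type 2 dendritic cells 4.14% of 2678 genes were higher. Over all cells the median log2 ratio was -0.05 for the members and -0.08 for all genes.

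**Figure D3:**
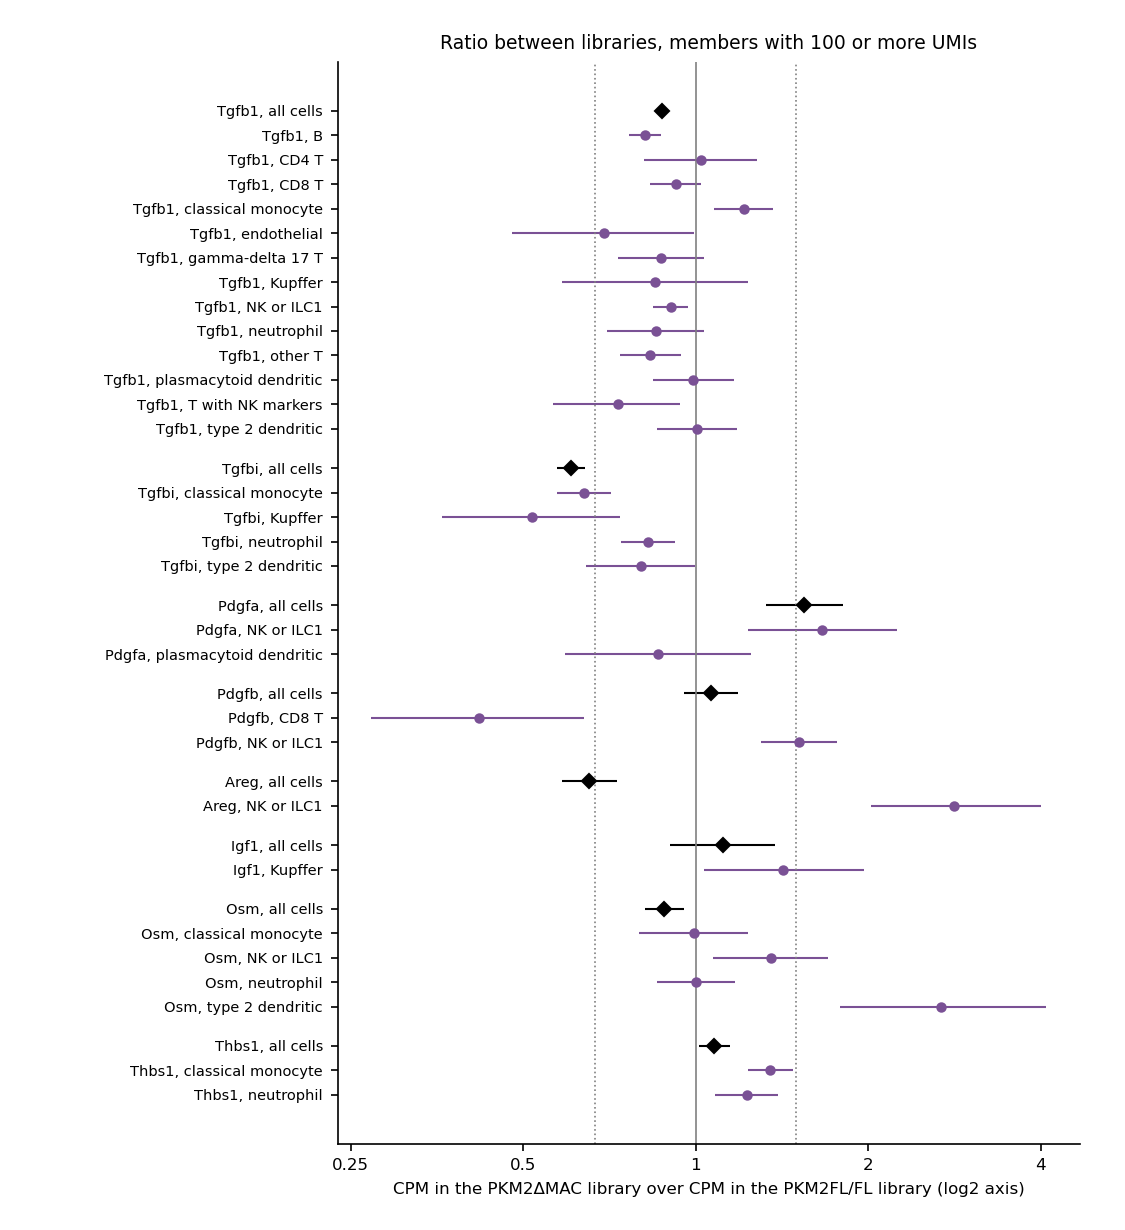
Ratio of the level (CPM) in the PKM2ΔMAC library over that in the PKM2FL/FL library on a log2 axis, for the 37 pairs of a member with all cells (black diamonds) or with a class (violet circles) that had at least 100 UMIs in both libraries together; bars are exact 95% counting intervals and dotted lines mark 1.5-fold. With all UMIs, as drawn, Tgfbi lies left of 1 in each of its classes and Thbs1 right of 1, while Tgfb1 stays between the dotted lines. With cells thinned to 500 UMIs, and so on far fewer UMIs, 10 of the 27 ratios between the dotted lines pass one of them.

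Tgfb1 (ENSMUSG00000002603, chromosome 7, 25687002 to 25705077, mm10) encodes the main profibrotic transforming growth factor beta. It was detected broadly. Classical monocytes had 475 CPM (431 to 521) in ΔMAC cells and 391 CPM (363 to 421) in FL/FL cells. Type 2 dendritic cells had 304 CPM (269 to 343) in ΔMAC cells and 302 CPM (271 to 335) in FL/FL cells, and endothelial cells had 262 CPM (193 to 348) in ΔMAC cells and 379 CPM (305 to 465) in FL/FL cells. Kupffer cells had 256 CPM (194 to 333) in ΔMAC cells and 302 CPM (233 to 385) in FL/FL cells. At the low end of the 13 classes were neutrophils, with 117 CPM (101.1 to 134) in ΔMAC cells and 137 CPM (119.7 to 156) in FL/FL cells, and CD8 T cells, with 115 CPM (107 to 123) in ΔMAC cells and 125 CPM (115 to 134) in FL/FL cells. In the ΔMAC library classical monocytes stood above the next of the 13 classes beyond counting error, and in the FL/FL library classical monocytes and endothelial cells did not differ beyond it. Among the small classes, platelet cells had 286 CPM from 9 UMIs in 4 ΔMAC cells and 661 CPM from 17 UMIs in 8 FL/FL cells. Non-classical monocytes had 442 CPM from 26 UMIs in 8 ΔMAC cells and 358 CPM from 32 UMIs in 15 FL/FL cells. B cells held 22.0% of its UMIs in the ΔMAC library and 20.5% in the FL/FL library, and were 27.6% of ΔMAC cells and 22.5% of FL/FL cells. Between libraries, the ratio was 0.874 (0.849 to 0.9003) over all cells, 1.21 (1.08 to 1.37) in classical monocytes and 0.693 (0.478 to 0.993) in endothelial cells. With all UMIs it lay within 1.5-fold of 1 in each of the 13 classes. With cells thinned to 500 UMIs 5 classes were outside that range, each on far fewer UMIs and without an interval. Their ratios were 1.61 in CD4 T cells, 0.614 in other T cells, 0.221 in T cells with NK markers, 0.614 in Kupffer cells and 0.594 in endothelial cells. The Kupffer ratio was also 0.650 with cells grouped by cluster and 0.5996 as the mean of the cells' own CPM, and the endothelial ratio was 0.640 with doublets kept and 0.594 with clusters. The stellate or fibroblast class had 2 UMIs in 37 cells of the ΔMAC library and 4 UMIs in 12 cells of the FL/FL library.

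The 250 bases before the annotated start are shown for Tgfb1, detected in nearly every class, and below for Areg, detected in few cells, and Timp1, hardly detected at all. The sequences are from RefSeq on GRCm38.p6, all 3 genes lie on the plus strand, and 7 of the 10 members matched the promoter table. Motifs were searched on both strands. TGANTCA (AP-1) occurs in 6.75% of the 32851 promoter windows of that length, TGACGTCA (the cyclic AMP response element, CRE) in 1.55%, GGGCGG (the GC box) in 32.7% and GAGGAAGT (PU.1, a factor of myeloid cells) in 2.44%. Capitals mark a match, which is a run of letters and not a site of binding. The Tgfb1 window (chr7:25686752-25687001) held 5 GC boxes, a G or C at 75.2% of bases, and none of the other motifs.
Tgfb1: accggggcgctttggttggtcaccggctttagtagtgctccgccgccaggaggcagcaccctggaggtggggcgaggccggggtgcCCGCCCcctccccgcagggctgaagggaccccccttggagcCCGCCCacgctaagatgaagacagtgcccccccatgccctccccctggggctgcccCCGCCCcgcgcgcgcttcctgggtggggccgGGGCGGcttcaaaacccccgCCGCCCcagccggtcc

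Tgfbi (ENSMUSG00000035493, chromosome 13, 56609523 to 56639562) encodes a matrix protein induced by transforming growth factor beta, and its transcript was found mostly in phagocytes, dendritic cells and stroma. Classical monocytes had 479.9 CPM (437 to 526) in ΔMAC cells and 750.0 CPM (711 to 790.3) in FL/FL cells (ratio 0.640, 0.574 to 0.712). Kupffer cells had 229 CPM (169.9 to 302) in ΔMAC cells and 441 CPM (357 to 539) in FL/FL cells (ratio 0.519, 0.361 to 0.739), and few cells held many of the UMIs: the 3 cells with most of them held 25 of 50 in the ΔMAC library and 51 of 95 in the FL/FL library. Neutrophils had 362 CPM (334 to 392) in ΔMAC cells and 438 CPM (407 to 471) in FL/FL cells (ratio 0.827, 0.742 to 0.921), and type 2 dendritic cells had 151 CPM (126 to 179) in ΔMAC cells and 188 CPM (164 to 214) in FL/FL cells (ratio 0.803, 0.643 to 0.999). All 4 ratios were below 1, though that of type 2 dendritic cells was 1.06 with each cell thinned to 500 UMIs, and over all cells the level was 44.8 CPM (42.8 to 46.9) in ΔMAC cells and 73.8 CPM (71.4 to 76.2) in FL/FL cells (ratio 0.607, 0.574 to 0.642). The lipid-associated macrophage class, cells with Gpnmb and Trem2 that arise in fatty liver, had 29 UMIs in 10 cells of the ΔMAC library and 252 UMIs in 53 cells of the FL/FL library, or 391 CPM (262 to 561) in ΔMAC cells and 465 CPM (409.8 to 527) in FL/FL cells. That class was 0.117% of ΔMAC cells and 0.559% of FL/FL cells, and classical monocytes were 1.31% of ΔMAC cells and 2.23% of FL/FL cells. The part of these cell numbers in the difference over all cells was not tested. With thinned cells the ratio was 0.659 in neutrophils, past 1.5-fold. It was 0.791 in classical monocytes and 0.694 in Kupffer cells with thinned cells, with 1 more marker required of a cell it was 0.698 in classical monocytes and 0.761 in Kupffer cells, and as the mean of the cells' own CPM it was 0.717 over all cells, all short of 1.5-fold. Stellate or fibroblast cells had 60 UMIs in 37 cells of the ΔMAC library and 23 UMIs in 12 cells of the FL/FL library, or 448 CPM (342 to 576) in ΔMAC cells and 376 CPM (239 to 565) in FL/FL cells. B cells, taken as background, were at 2.68 CPM in the ΔMAC library and 4.88 CPM in the FL/FL library.

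Thbs1 (ENSMUSG00000040152, chromosome 2, 118111876 to 118127133) encodes thrombospondin 1, a matrix and platelet protein that releases transforming growth factor beta from its latent complex. Classical monocytes had 837 CPM (779 to 898) in ΔMAC cells and 619 CPM (584 to 656) in FL/FL cells (ratio 1.35, 1.23 to 1.48), and neutrophils had 325 CPM (299 to 353) in ΔMAC cells and 265 CPM (241 to 291) in FL/FL cells (ratio 1.23, 1.08 to 1.39). Both ratios depended on the setting. In classical monocytes the ratio was 1.68 as the mean of the cells' own CPM and 2.28 with cells thinned to 500 UMIs, both past 1.5-fold, and in neutrophils it was 0.802, below 1, with thinned cells. No other class of the 13 passed 4.50 CPM in either library, and B cells were at 1.34 CPM in the ΔMAC library and 2.23 CPM in the FL/FL library. Classical monocytes were split in this gene. Among them, a Thbs1 UMI was found in 49.1% (39.5 to 58.7) of ΔMAC cells and 48.8% (41.9 to 55.8) of FL/FL cells, and after each cell was thinned to 500 UMIs these shares were 28.6% in the ΔMAC library and 15.6% in the FL/FL library. Single monocytes held up to 66 UMIs in the ΔMAC library and 63 UMIs in the FL/FL library. Among the small classes, smooth muscle cells had 160 UMIs in 35 cells of the ΔMAC library and 0 UMIs in 9 cells of the FL/FL library. The floor of 3 UMIs in the FL/FL cells is 83.8 CPM, so the ΔMAC level of 1063 CPM was at least 12.7-fold higher by counts, from 9 cells on the FL/FL side. The few platelet cells, a known store of the protein, had 5 UMIs in 4 cells of the ΔMAC library and 23 UMIs in 8 cells of the FL/FL library. Over all cells the level was 45.8 CPM (43.7 to 48.0) in ΔMAC cells and 42.5 CPM (40.7 to 44.4) in FL/FL cells (ratio 1.08, 1.01 to 1.15). Exons of Thbs1 overlap those of Gm29233 on the opposite strand, and those of Pdgfa and Pdgfc overlap 6330403L08Rik and Gm16000, while the strand setting of the counting is not given in the sources used here.

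Other genes of the transforming growth factor beta system lay mostly within 1.5-fold between the libraries over all cells. Of the 8 listed ligand and storage genes, 5 had enough UMIs, and 1 was higher and 1 lower in the ΔMAC library, with a median log2 ratio of -0.16 against -0.08 over all genes. Ltbp1, which binds latent transforming growth factor beta to matrix, was at 1.74 CPM in ΔMAC cells and 0.685 CPM in FL/FL cells (ratio 2.53, 1.66 to 3.94). Of its 70 UMIs in the ΔMAC library, 39 lay in the smooth muscle class, which had 35 ΔMAC cells and 9 FL/FL cells. The part of these cell numbers in the Ltbp1 ratio was not tested. Lrrc32, which holds the latent form on the surface of regulatory T cells, platelets and endothelium, was at 2.80 CPM in ΔMAC cells and 4.58 CPM in FL/FL cells (ratio 0.612, 0.484 to 0.771). Nrros, which does so on myeloid cells, was highest in type 2 dendritic cells among the 13 classes, at 287 CPM in the ΔMAC library and 287 CPM in the FL/FL library. Of the 5 receptor genes all were counted and none lay 1.5-fold apart (median log2 ratio -0.01). Tgfbr2, the ligand-binding receptor, was highest in endothelial cells, at 295 CPM (222 to 385) in ΔMAC cells and 204 CPM (151 to 269.7) in FL/FL cells, and the coreceptor Eng was also highest there, at 1558 CPM (1382 to 1749.8) in ΔMAC cells and 1316 CPM (1175 to 1469) in FL/FL cells. Of 8 genes that respond to the pathway, 7 were counted and none lay 1.5-fold apart over all cells (median -0.09). Among them, the feedback inhibitor Smad7 was lower in the ΔMAC library in plasmacytoid dendritic cells, at 117 CPM in ΔMAC cells and 198 CPM in FL/FL cells (ratio 0.590, 0.479 to 0.727), and in neutrophils, at 26.1 CPM in ΔMAC cells and 44.2 CPM in FL/FL cells (ratio 0.591, 0.398 to 0.867), a class in which 21.8% of genes were lower. Of 7 activators, 3 were counted and none was apart over all cells (median -0.19). Furin, the convertase of the precursor, was highest in basophils or mast cells, at 307 CPM in the ΔMAC library and 604 CPM in the FL/FL library.

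Pdgfa (ENSMUSG00000025856, chromosome 5, 138976014 to 138997370) encodes the A chain of platelet-derived growth factor, a ligand of the alpha receptor. Its source was divided among plasmacytoid dendritic cells, NK or ILC1 cells and stroma. Plasmacytoid dendritic cells had 45.7 CPM (35.5 to 57.9) in ΔMAC cells and 53.2 CPM (39.9 to 69.4) in FL/FL cells (ratio 0.859, 0.592 to 1.25), from 68 UMIs in the ΔMAC library and 54 UMIs in the FL/FL library. After thinning to 500 UMIs per cell no Pdgfa UMI remained in the ΔMAC cells of this class, and the ratio was 0. NK or ILC1 cells had 13.7 CPM (11.1 to 16.7) in ΔMAC cells and 8.21 CPM (6.60 to 10.1) in FL/FL cells (ratio 1.66, 1.24 to 2.24) and held 26.5% of its UMIs in the ΔMAC library and 30.3% in the FL/FL library. With 1 more marker required of a cell the NK or ILC1 ratio was 2.58, and with cells thinned to 500 UMIs it was 5.39, on far fewer UMIs. The stromal classes had higher levels on few cells. Smooth muscle cells had 43 UMIs in 35 cells of the ΔMAC library and 6 UMIs in 9 cells of the FL/FL library, or 286 CPM (207 to 385) in ΔMAC cells and 168 CPM (61.5 to 365) in FL/FL cells. Mesothelial cells, the lining of the liver surface, had 5 UMIs in 30 cells of the ΔMAC library and 18 UMIs in 22 cells of the FL/FL library, or 50.1 CPM (16.3 to 117) in ΔMAC cells and 146 CPM (86.3 to 230.1) in FL/FL cells. A small epithelial group, labelled unnamed epithelial in the figures, was set by the cholangiocyte (bile duct) gate and led by Clu, Spp1 and Alb. Its gate marker Epcam was at 944 CPM in the ΔMAC library and 1049 CPM in the FL/FL library. The group had 20 Pdgfa UMIs in 6 cells of the ΔMAC library and 10 in 7 cells of the FL/FL library. Over all cells Pdgfa was at 9.18 CPM (8.27 to 10.2) in ΔMAC cells and 5.93 CPM (5.27 to 6.64) in FL/FL cells (ratio 1.55, 1.32 to 1.81). Smooth muscle cells held 11.6% of its UMIs in the ΔMAC library and 2.04% in the FL/FL library and made up 0.410% of ΔMAC cells and 0.0949% of FL/FL cells, and their part in the difference over all cells was not tested. Monocytes, macrophages and neutrophils held 1.35% of the Pdgfa UMIs in the ΔMAC library and 4.76% in the FL/FL library.

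Pdgfb (ENSMUSG00000000489, chromosome 15, 79995874 to 80014977) encodes the B chain, which binds both receptors and is a strong mitogen of stellate cells. NK or ILC1 cells held the largest share, 54.0% of its UMIs in the ΔMAC library and 46.6% in the FL/FL library. These cells had 47.3 CPM (42.4 to 52.6) in ΔMAC cells and 31.2 CPM (28.0 to 34.7) in FL/FL cells (ratio 1.52, 1.30 to 1.77). Among them, a Pdgfb UMI was found in 21.1% (18.9 to 23.4) of ΔMAC cells and 15.9% (14.3 to 17.6) of FL/FL cells, with at most 4 UMIs in 1 cell in either library, so the signal was spread over many cells. The NK or ILC1 ratio was short of 1.5-fold under 5 of 8 other settings, the lowest being 1.25 with cells thinned to 500 UMIs. In B cells the share of cells with a UMI was 0.0850% in the ΔMAC library and 0.140% in the FL/FL library. CD8 T cells were lower in the ΔMAC library, with 5.19 CPM (3.64 to 7.19) in ΔMAC cells and 12.4 CPM (9.59 to 15.7) in FL/FL cells (ratio 0.419, 0.272 to 0.638), and the ratio was 0.823 with cells thinned to 500 UMIs. Endothelial cells, a textbook source of this chain, had 6 UMIs in 110 cells of the ΔMAC library and 4 UMIs in 61 cells of the FL/FL library. The myeloid classes had few UMIs and differed by class. Type 1 dendritic cells had 21 UMIs in 53 cells of the ΔMAC library and 1 UMI in 39 cells of the FL/FL library, and type 2 dendritic cells had 18 UMIs in 86 cells of the ΔMAC library and 6 UMIs in 106 cells of the FL/FL library. Classical monocytes had 3 UMIs in 112 cells of the ΔMAC library and 29 UMIs in 211 cells of the FL/FL library, or 3.21 CPM (0.661 to 9.37) in ΔMAC cells and 15.5 CPM (10.4 to 22.3) in FL/FL cells. Kupffer cells had 2 UMIs in the ΔMAC library and 8 UMIs in the FL/FL library. Over all cells the level was 15.6 CPM (14.4 to 16.8) in ΔMAC cells and 14.6 CPM (13.6 to 15.7) in FL/FL cells (ratio 1.06, 0.955 to 1.19), and the ratio was 0.923 with thinned cells.

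Pdgfc (ENSMUSG00000028019, chromosome 3, 81036416 to 81214040) encodes a chain that is activated by proteolysis and acts on the alpha receptor. It was rare, at 0.992 CPM (0.709 to 1.35) in ΔMAC cells and 0.564 CPM (0.375 to 0.816) in FL/FL cells. In the clustering of cells, the epithelial cluster led by Spp1, Clu and Alb held 21 Pdgfc UMIs in 9 cells of the ΔMAC library and 16 in 12 cells of the FL/FL library. That was 52.5% of the gene's UMIs in the ΔMAC library and 57.1% in the FL/FL library. The same cluster held 38 Pdgfa UMIs in 9 cells of the ΔMAC library and 34 in 12 cells of the FL/FL library. Kupffer cells had 5 UMIs in as many cells of the ΔMAC library and 4 UMIs in as many cells of the FL/FL library. The receptors were stromal. Pdgfra was highest in stellate or fibroblast cells, at 313 CPM (226 to 423) in ΔMAC cells and 442 CPM (291 to 643) in FL/FL cells, and had 0 UMIs in B cells of either library. Pdgfrb was highest in smooth muscle cells, at 232 CPM (162 to 323) in ΔMAC cells and 530.4 CPM (319 to 828) in FL/FL cells, and stellate or fibroblast cells had 216 CPM (145 to 311) in ΔMAC cells and 327 CPM (199.97 to 506) in FL/FL cells. Of the 3 other genes of this family listed, Pdgfrb alone was counted over all cells, with 2.58 CPM in ΔMAC cells and 1.77 CPM in FL/FL cells and a ratio of 1.45 (1.08 to 1.95).

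Areg (ENSMUSG00000029378, chromosome 5, 91139599 to 91148432) encodes amphiregulin, a ligand of the epidermal growth factor receptor that regulatory T cells, group 2 innate lymphoid cells and macrophages are known to release in tissue repair. Its UMIs came from few cells with many each. Over all cells it was at 12.4 CPM (11.3 to 13.5) in ΔMAC cells and 18.9 CPM (17.7 to 20.2) in FL/FL cells (ratio 0.653, 0.584 to 0.728), and a UMI was found in 1.68% (1.41 to 1.97) of ΔMAC cells and 2.43% (2.13 to 2.76) of FL/FL cells. Regulatory T cells, defined by Foxp3, had 7 UMIs in 21 cells of the ΔMAC library and 217 UMIs in 59 cells of the FL/FL library. Their level was 51.0 CPM (20.5 to 105) in ΔMAC cells and 502 CPM (437 to 573) in FL/FL cells. An Areg UMI was found in 2 of 21 such cells in the ΔMAC library and 25 of 59 in the FL/FL library, that is 9.52% (1.17 to 30.4) of ΔMAC cells and 42.4% (29.6 to 55.9) of FL/FL cells. Thinned to 500 UMIs per cell, the shares were 4.76% in the ΔMAC library and 16.9% in the FL/FL library, and unthinned B cells, as background, were at 0.255% in the ΔMAC library and 0.281% in the FL/FL library. The class was below 50 cells in the ΔMAC library, and the single highest cell held 5 of 7 UMIs there and 63 of 217 UMIs in the FL/FL library. Regulatory T cells were 0.246% of ΔMAC cells and 0.622% of FL/FL cells. Their part in the Areg difference over all cells was not tested.

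High Areg levels were also found in a few lymphoid cells of both libraries. The few cells of the group 2 innate lymphoid gate had 18 UMIs in 5 cells of the ΔMAC library and 41 UMIs in 2 cells of the FL/FL library. A cluster outside every gate, led by Calca, Areg, Rasl11a, Il22 and Tnfsf11, held 68 Areg UMIs in 20 cells of the ΔMAC library and 83 in 14 cells of the FL/FL library. Its level was 621 CPM (482 to 788) in ΔMAC cells and 1024 CPM (816 to 1269.6) in FL/FL cells. That cluster was 0.234% of ΔMAC cells and 0.148% of FL/FL cells and carried 13.7% of Areg UMIs in the ΔMAC library and 8.84% in the FL/FL library. Areg is itself one of its leading genes, so its level there is a description. Gamma-delta T cells, the leading class of the 13, had 31.5 CPM (23.1 to 41.9) in ΔMAC cells and 39.8 CPM (29.3 to 52.7) in FL/FL cells (ratio 0.792, 0.518 to 1.21), and conventional CD4 T cells had 19.1 CPM (10.2 to 32.6) in ΔMAC cells and 31.2 CPM (23.5 to 40.8) in FL/FL cells. Neither differed from the next class in its library beyond counting error. NK or ILC1 cells had 14.4 CPM (11.7 to 17.4) in ΔMAC cells and 5.08 CPM (3.82 to 6.61) in FL/FL cells (ratio 2.83, 2.02 to 4.001), where 1 ΔMAC cell held 46 of 103 UMIs. Without the highest cell of each library the ratio was 1.79, and it was short of 1.5-fold under 4 other settings, at 1.31 with cells grouped by cluster, 1.30 as the mean of the cells' own CPM, 1.23 with 1 more marker and 1.22 with cells thinned.

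Areg in classical monocytes was found mostly in the FL/FL library, and dendritic cells differed by class. Classical monocytes had 2 UMIs in 112 cells of the ΔMAC library and 74 UMIs in 211 cells of the FL/FL library, from 1 ΔMAC cell and 11 FL/FL cells with a UMI. Of the FL/FL UMIs, 49 lay in 3 cells. Lipid-associated macrophages had 0 UMIs in 10 cells of the ΔMAC library and 25 UMIs in 53 cells of the FL/FL library. The interval of that ratio, 0 to 1.16, includes 1. Type 2 dendritic cells had 25.9 CPM in the ΔMAC library and 26.4 CPM in the FL/FL library, and type 1 dendritic cells had 22 UMIs in 53 cells of the ΔMAC library and 9 UMIs in 39 cells of the FL/FL library. Plasmacytoid dendritic cells had 13.4 CPM from 20 UMIs in the ΔMAC library and 26.6 CPM from 27 UMIs in the FL/FL library (ratio 0.505, 0.269 to 0.935). With cells grouped by cluster, the classical monocyte cluster had 2.56 CPM (0.528 to 7.48) in ΔMAC cells and 34.2 CPM (26.8 to 43.1) in FL/FL cells. The Areg upstream window (chr5:91139349-91139598) held a CRE at -61, a GC box at -52 and a PU.1 match at -126, counted from the annotated start, and no AP-1 match.
Areg: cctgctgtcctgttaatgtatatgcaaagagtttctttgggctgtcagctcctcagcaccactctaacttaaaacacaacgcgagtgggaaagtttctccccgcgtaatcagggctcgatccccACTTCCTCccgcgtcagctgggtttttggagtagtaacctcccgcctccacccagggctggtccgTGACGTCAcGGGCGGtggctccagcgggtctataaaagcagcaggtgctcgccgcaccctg

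The receptor of amphiregulin was rarely detected in these cells. Egfr had 44 UMIs in the ΔMAC library and 53 UMIs in the FL/FL library and was highest in stellate or fibroblast cells, at 97.0 CPM (51.6 to 166) in ΔMAC cells and 180.1 CPM (89.9 to 322) in FL/FL cells. Of 6 other ligands of that receptor, 3 were counted over all cells (median log2 ratio -0.23) and 1 was lower in the ΔMAC library, Egf, at 0.819 CPM in ΔMAC cells and 1.57 CPM in FL/FL cells (ratio 0.521, 0.336 to 0.791). Hbegf, a ligand of macrophages and endothelium, was at 16.5 CPM in ΔMAC cells and 16.2 CPM in FL/FL cells (ratio 1.02, 0.921 to 1.13). Of 7 genes of receptors and ligand shedding, 5 were counted and none lay 1.5-fold apart (median -0.04). Adam17, the protease that frees amphiregulin from the membrane, was at 35.6 CPM in ΔMAC cells and 39.3 CPM in FL/FL cells (ratio 0.906, 0.845 to 0.9700) over all cells and lower in the ΔMAC library in neutrophils, at 32.5 CPM in ΔMAC cells and 54.4 CPM in FL/FL cells (ratio 0.598, 0.421 to 0.843). In neutrophils 21.8% of 3240 genes were at least 1.5-fold lower.

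**Figure D4:**
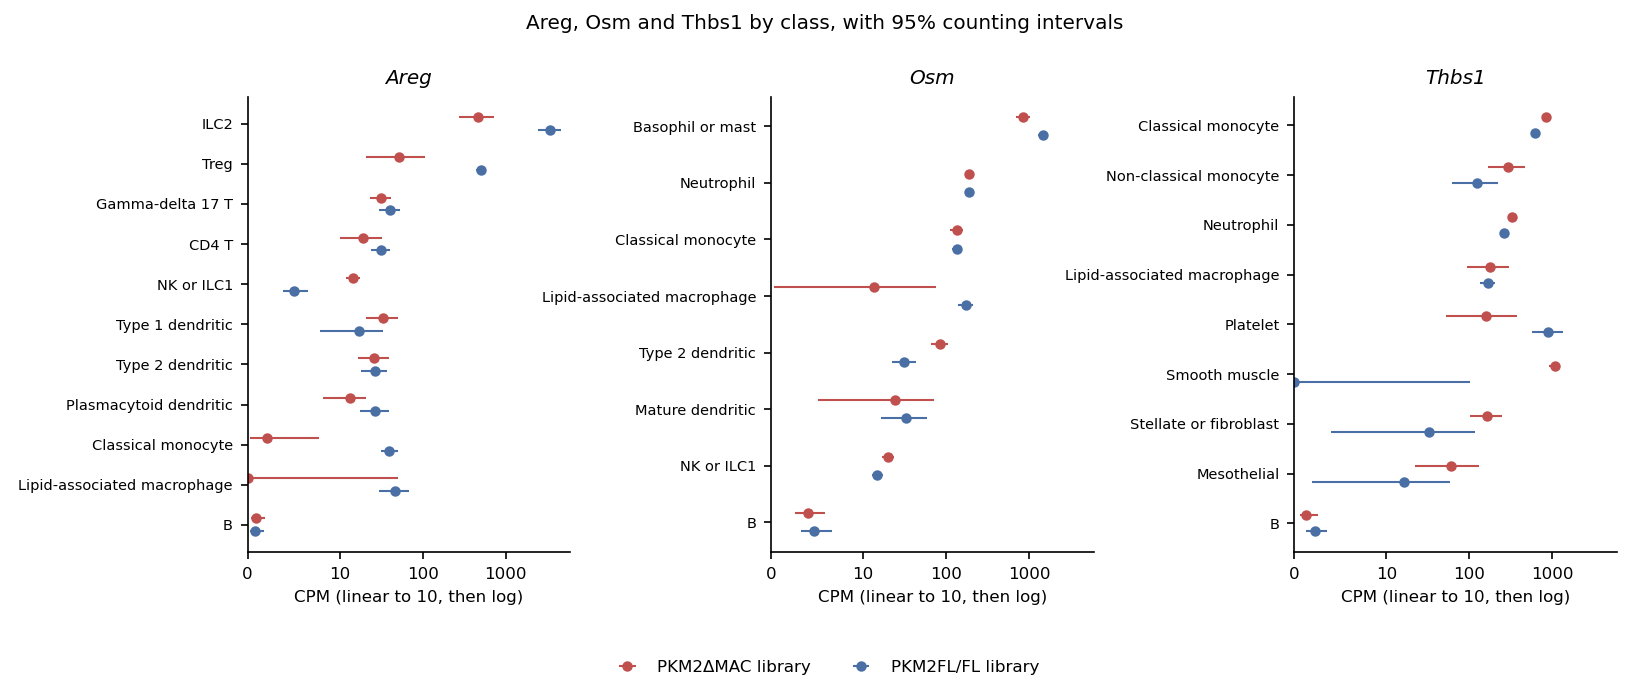
CPM of Areg, Osm and Thbs1 by class of cells in the PKM2ΔMAC library (red, upper point) and the PKM2FL/FL library (blue, lower point), on an axis that is linear to 10 CPM and logarithmic above; bars are exact 95% counting intervals. Areg in regulatory T cells stands at 51.0 CPM (ΔMAC) and 502 CPM (FL/FL), and Osm in neutrophils at 191 CPM (ΔMAC) and 191 CPM (FL/FL).

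Igf1 (ENSMUSG00000020053, chromosome 10, 87858265 to 87937042) encodes insulin-like growth factor 1, made in bulk by hepatocytes and also by resident macrophages. Among these cells Kupffer cells led. They had 449 CPM (364 to 547) in ΔMAC cells and 316 CPM (245 to 400.3) in FL/FL cells (ratio 1.42, 1.03 to 1.97), and they held 56.0% of its UMIs in the ΔMAC library and 35.2% in the FL/FL library. Among them, a UMI was found in 42.6% (33.4 to 52.2) of ΔMAC cells and 37.7% (28.8 to 47.3) of FL/FL cells, and after thinning to 500 UMIs per cell the shares stood the other way round, at 15.7% in the ΔMAC library and 20.2% in the FL/FL library. The next class of the 13 was far lower in both libraries, classical monocytes at 2.14 CPM in the ΔMAC library and endothelial cells at 8.33 CPM in the FL/FL library. The small classes were nearer to the Kupffer level. Lipid-associated macrophages had 12 UMIs in 10 cells of the ΔMAC library and 39 UMIs in 53 cells of the FL/FL library, or 162 CPM in ΔMAC cells and 72.0 CPM in FL/FL cells. Stellate or fibroblast cells had 17 UMIs in 37 cells of the ΔMAC library and 16 UMIs in 12 cells of the FL/FL library, or 127 CPM in ΔMAC cells and 262 CPM in FL/FL cells. The Kupffer ratio was 0.763, below 1, with cells thinned, and it passed 1.5-fold with at least 500 genes required of a cell. Over all cells the ratio was 1.12 (0.904 to 1.38), and 0.985 with cells thinned. Its receptor gene Igf1r was highest in basophils or mast cells, at 299.8 CPM (213 to 409.8) in ΔMAC cells and 483 CPM (381 to 605) in FL/FL cells, and neutrophils had 284 CPM (259.7 to 311) in ΔMAC cells and 329.8 CPM (303 to 359) in FL/FL cells. Of 10 other genes of the system, 8 were counted over all cells (median log2 ratio 0.08), and 1 was higher in the ΔMAC library, the binding protein gene Igfbp7, at 47.1 CPM in ΔMAC cells and 28.5 CPM in FL/FL cells (ratio 1.65, 1.54 to 1.77). Igfbp7 was highest in smooth muscle cells, at 2889 CPM in the ΔMAC library and 3769 CPM in the FL/FL library. Stromal, endothelial and epithelial cells together were 2.57% of ΔMAC cells and 1.17% of FL/FL cells. Their part in the Igfbp7 difference over all cells was not tested. The highest level of Igfbp6 was in mesothelial cells, at 4776 CPM in the ΔMAC library and 3438 CPM in the FL/FL library.

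Osm (ENSMUSG00000058755, chromosome 11, 4236420 to 4241026) encodes oncostatin M, a cytokine of the interleukin 6 family that acts on hepatocytes, endothelium and stellate cells. Over all cells it was at 26.8 CPM (25.2 to 28.4) in ΔMAC cells and 30.3 CPM (28.8 to 31.9) in FL/FL cells (ratio 0.882, 0.815 to 0.954). Basophils or mast cells had the highest level among the named classes in both libraries. They had 110 UMIs in 22 cells of the ΔMAC library and 230 UMIs in 29 cells of the FL/FL library, or 846 CPM (695 to 1019) in ΔMAC cells and 1462 CPM (1279 to 1663) in FL/FL cells. These cells were 0.258% of ΔMAC cells and 0.306% of FL/FL cells and held 10.2% of its UMIs in the ΔMAC library and 15.3% in the FL/FL library. The make-up of this class differed between the libraries, with the basophil protease Prss34 at 4835 CPM in the ΔMAC library and 108 CPM in the FL/FL library and Hdc, the histamine enzyme, at 2783 CPM in the ΔMAC library and 2854 CPM in the FL/FL library, and its part in the level was not tested. Neutrophils, the leading class of the 13, were level between the libraries, with 191 CPM (171 to 213) in ΔMAC cells and 191 CPM (170.3 to 213) in FL/FL cells (ratio 1.002, 0.856 to 1.17), where the median gene of the class stood at -0.28 on the log2 scale of the same ratio. Classical monocytes had 135 CPM (112 to 160.4) in ΔMAC cells and 135 CPM (119 to 153) in FL/FL cells (ratio 0.994, 0.797 to 1.24), but the ratio was 0.523 with cells thinned to 500 UMIs and 1.28 as the mean of the cells' own CPM. NK or ILC1 cells had 20.1 CPM (16.9 to 23.6) in ΔMAC cells and 14.9 CPM (12.7 to 17.3) in FL/FL cells (ratio 1.35, 1.07 to 1.70), above the 4.03 CPM of ΔMAC B cells and the 4.74 CPM of FL/FL B cells, and the ratio was 1.81 with cells thinned.

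Type 2 dendritic cells had 84.5 CPM (66.4 to 106) in ΔMAC cells and 31.5 CPM (22.2 to 43.4) in FL/FL cells (ratio 2.68, 1.79 to 4.09). In the ΔMAC library 1 cell held 22 of 75 UMIs, and among the class a UMI was found in 27.9% (18.8 to 38.6) of ΔMAC cells and 22.6% (15.1 to 31.8) of FL/FL cells. With 1 more marker required of a cell the ratio was 0.943, and with cells grouped by cluster it was 1.35. Lipid-associated macrophages had 1 UMI in 10 cells of the ΔMAC library and 93 UMIs in 53 cells of the FL/FL library, or 13.5 CPM (0.341 to 75.03) in ΔMAC cells and 172 CPM (139 to 210.4) in FL/FL cells. Il6st, which encodes the shared chain gp130, was highest in endothelial cells, at 1164 CPM (1013 to 1332) in ΔMAC cells and 845 CPM (733 to 969.9) in FL/FL cells. Lifr, the other chain of the type I receptor complex, had 776 CPM (654 to 915) in ΔMAC cells and 999 CPM (877 to 1134) in FL/FL cells in the same class, and Osmr, the specific chain, had 98.4 CPM (58.3 to 156) in ΔMAC cells and 37.5 CPM (17.1 to 71.1) in FL/FL cells there and 89.5 CPM (46.2 to 156) in ΔMAC cells and 81.8 CPM (26.6 to 191) in FL/FL cells in stellate or fibroblast cells. Of 5 other genes of the family, 4 were counted over all cells and none lay 1.5-fold apart (median log2 ratio 0.15). Il6 was highest in basophils or mast cells, like Osm, at 1476 CPM in the ΔMAC library and 1290.2 CPM in the FL/FL library.

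**Figure D5:**
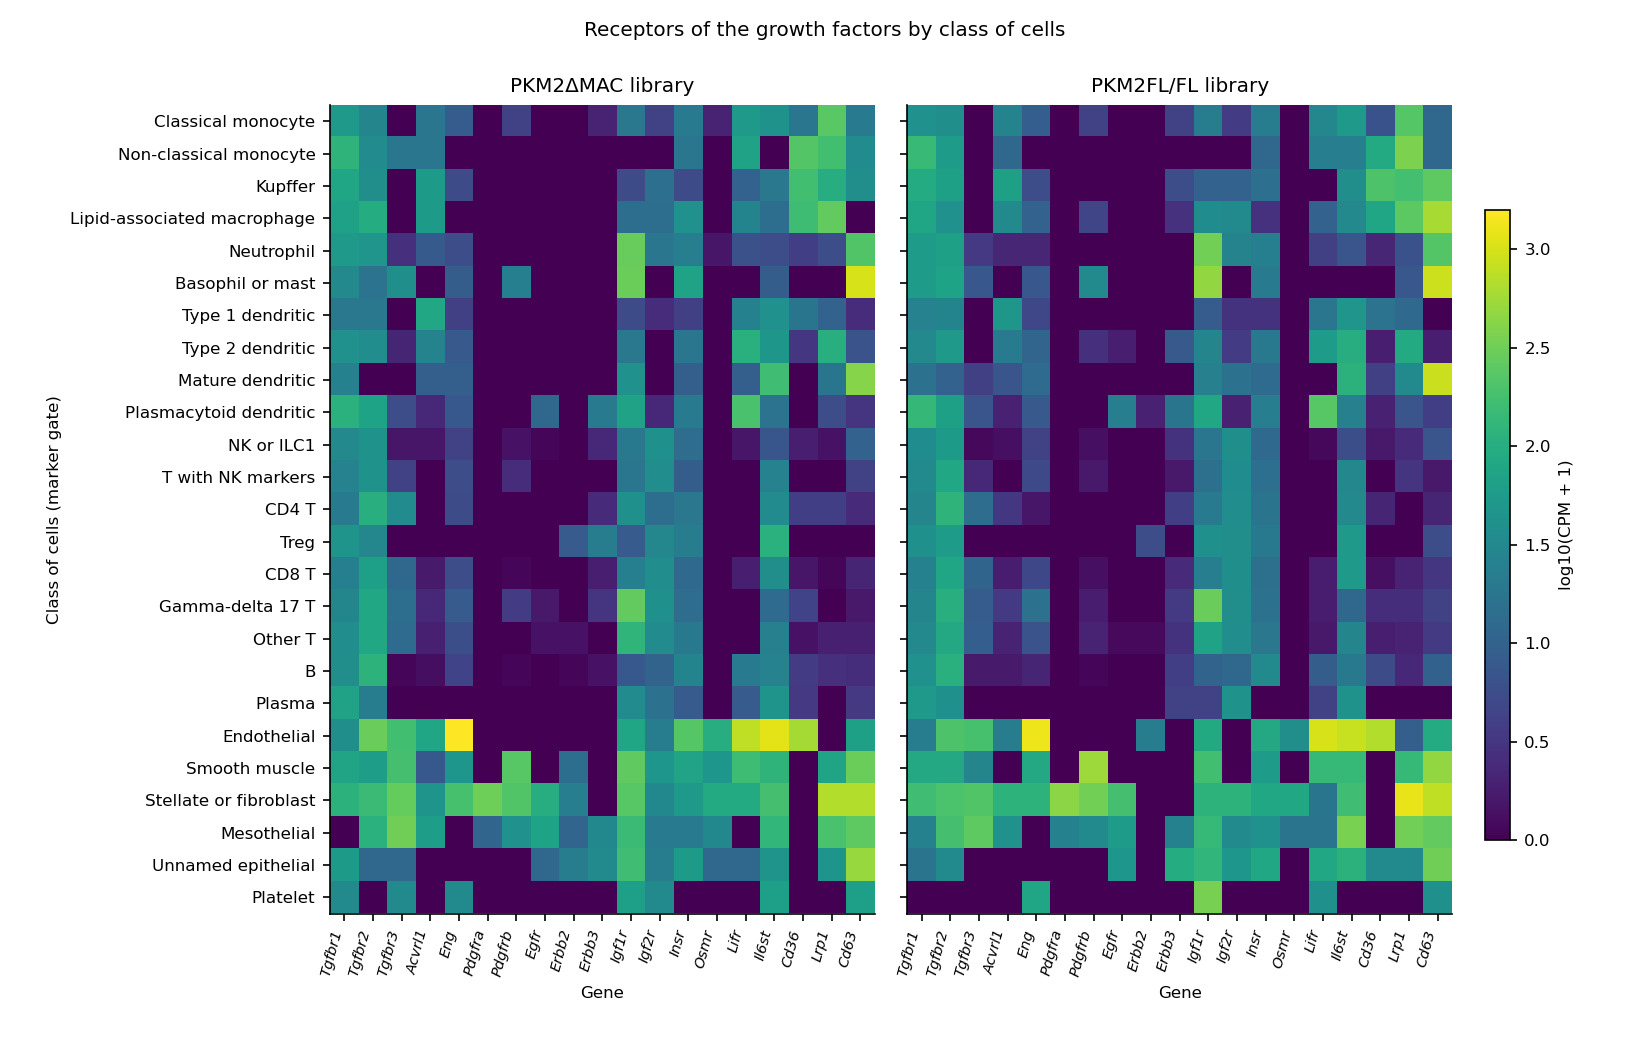
Level, as log10(CPM + 1), of receptor genes of the growth factors and of the thrombospondin 1 and TIMP1 receptors Cd36, Lrp1 and Cd63 in classes of cells of the PKM2ΔMAC library (left) and the PKM2FL/FL library (right). Pdgfra and Pdgfrb are lit in the stromal rows, Eng, Il6st, Lifr and Cd36 in the endothelial row.

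Timp1 (ENSMUSG00000001131, chromosome X, 20870166 to 20874735) was close to the limit of detection. It had 13 UMIs in 10 cells of the ΔMAC library and 32 UMIs in 21 cells of the FL/FL library, or 0.322 CPM (0.172 to 0.551) in ΔMAC cells and 0.645 CPM (0.441 to 0.911) in FL/FL cells. Classical monocytes had 1 UMI in the ΔMAC library and 14 UMIs in 6 cells of the FL/FL library. Stellate or fibroblast cells had 1 UMI in 37 cells of the ΔMAC library and 2 UMIs in 12 cells of the FL/FL library, and mesothelial cells had 1 UMI in the ΔMAC library and 5 UMIs in the FL/FL library. These counts are too few to compare the libraries. The other inhibitors were better detected. Timp2 was highest in mesothelial cells, at 1132 CPM in the ΔMAC library and 1286 CPM in the FL/FL library, and Timp3 in endothelial cells, at 907 CPM in the ΔMAC library and 1258 CPM in the FL/FL library. Timp2 in plasmacytoid dendritic cells was at 35.6 CPM in ΔMAC cells and 108 CPM in FL/FL cells (ratio 0.329, 0.232 to 0.460). Of 7 metalloproteinase genes, 5 were counted over all cells (median log2 ratio -0.49), and 2 were lower in the ΔMAC library. Mmp12, the macrophage elastase and one of the markers used for lipid-associated macrophages, was at 2.58 CPM in ΔMAC cells and 4.39 CPM in FL/FL cells (ratio 0.587, 0.460 to 0.745). Within that class Mmp12 was at 269 CPM from 20 UMIs in the ΔMAC library and 240 CPM from 130 UMIs in the FL/FL library. Mmp14, a membrane-bound collagenase, was at 3.35 CPM in ΔMAC cells and 8.89 CPM in FL/FL cells (ratio 0.377, 0.308 to 0.458). It had 10 UMIs in 10 lipid-associated macrophages of the ΔMAC library and 118 UMIs in 53 of the FL/FL library. That class was 0.117% of ΔMAC cells and 0.559% of FL/FL cells. The part of these cell numbers in the Mmp12 and Mmp14 differences over all cells was not tested. Mmp9 was highest in neutrophils, at 1338 CPM in ΔMAC cells and 1677 CPM in FL/FL cells (ratio 0.798, 0.755 to 0.844). The collagen genes Col1a1, Col1a2 and Col3a1 are themselves markers of the stellate or fibroblast gate, and Col1a2 had 939.8 CPM there in the ΔMAC library and 1981 CPM in the FL/FL library. The make-up of that class differed between the libraries, as described with the classes, and its part in this level was not tested. The upstream window of Timp1 (chrX:20869916-20870165) held a GC box at -8 and none of the other motifs.
Timp1: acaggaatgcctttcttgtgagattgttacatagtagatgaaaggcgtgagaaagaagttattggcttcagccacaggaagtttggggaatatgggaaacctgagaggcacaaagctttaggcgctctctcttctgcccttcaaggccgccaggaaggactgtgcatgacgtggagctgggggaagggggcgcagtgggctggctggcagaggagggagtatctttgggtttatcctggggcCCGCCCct

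Around the members, 80 genes of their pathways had been listed, 79 of them with 1 row in the files, and 55 had at least 100 UMIs in both libraries together. Of these, 2 were higher over all cells in the ΔMAC library, Ltbp1 and Igfbp7, against 3.65% of all genes, and 4 were lower, Lrrc32, Egf, Mmp12 and Mmp14, against 4.75% of all genes. Within the 13 classes 198 pairs of a listed gene and a class were counted, of which 6 were higher, against 2.81% of the pairs of all genes, 16 were lower, against 6.8%, and 176 lay within 1.5-fold. These shares were near those of all genes. Those at least 2-fold apart were few. Lifr in B cells was at 19.2 CPM in ΔMAC cells and 7.66 CPM in FL/FL cells (ratio 2.51, 1.82 to 3.51). Il6 in classical monocytes was at 29.9 CPM in ΔMAC cells and 69.6 CPM in FL/FL cells (ratio 0.430, 0.275 to 0.651). Il6st in type 2 dendritic cells was at 48.4 CPM in ΔMAC cells and 98.7 CPM in FL/FL cells (ratio 0.491, 0.337 to 0.702). Mmp9 in other T cells, which do not make it in quantity, was at 14.8 CPM in ΔMAC cells and 60.8 CPM in FL/FL cells (ratio 0.244, 0.165 to 0.3503), beside the neutrophil level given above. Cd74, the invariant chain of antigen presentation and a receptor of TIMP1, was at 713 CPM in ΔMAC cells and 1442 CPM in FL/FL cells (ratio 0.495, 0.454 to 0.538) in classical monocytes, at 66.9 CPM in ΔMAC cells and 135 CPM in FL/FL cells (ratio 0.495, 0.412 to 0.593) in other T cells and at 1454 CPM in ΔMAC cells and 299.8 CPM in FL/FL cells (ratio 4.85, 3.73 to 6.38) in endothelial cells. Cd63, a surface receptor of TIMP1, was highest in basophils or mast cells, at 1022 CPM in the ΔMAC library and 902 CPM in the FL/FL library. Among the thrombospondin genes and receptors, 2 of 5 were counted and none was apart, with a median log2 ratio of -0.06, and of 5 fibrillar collagen genes 3 were counted and none was apart, with a median of 0.39. The 3 TIMP1 receptor genes had a median of -0.50 and the 2 counted of 3 other TIMP genes a median of -0.02, none of them 1.5-fold apart over all cells.

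The genes whose levels followed each member most closely over the 13 classes were named by the Pearson correlation of log2(CPM + 10), with 26 points from 13 classes in 2 libraries. The points of 1 library share its preparation and depth, and no p-value is given. Tgfbi went with Clec4a2 (r = 0.990), a lectin receptor of myeloid cells, and Cd14 (0.9798), the endotoxin coreceptor. Thbs1 went with Cd177 (0.984), a neutrophil surface protein, and Hp (0.972), haptoglobin. Igf1 went with Fcna (0.996), Vsig4 (0.993) and C1qc (0.993), all genes of Kupffer cells. Vsig4 and C1qc are themselves markers of the Kupffer gate. Outside Kupffer cells Igf1 stayed at or below 8.33 CPM in the 13 classes. These correlations therefore rest on the Kupffer points and describe the gate. Osm went with Actg1 (0.936), Card19 (0.932) and Mcemp1 (0.931). The other members had looser partners. For Tgfb1 the closest was Dusp22 (0.885), for Pdgfa Smim24 (0.846), for Pdgfb Kifc3 (0.833) followed by the NK cell receptor genes Klrb1b (0.825) and Klrk1 (0.747), and for Areg Itgb7 (0.793). For Pdgfc, Vsig4 (0.968), again a marker of the Kupffer gate, and for Timp1, Il6 (0.884), were named on fewer than 100 UMIs of the member.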

How the data were processed

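Single-cell RNA of liver non-parenchymal cells was measured in 1 library per genotype. The deposited count matrices hold UMI counts per gene and cell barcode. The version 6.0.0 of Cell Ranger is given per the file headers. The names mm10, Cell Ranger and Seurat 4.3.0 appear in the submitters' processing notes, the last with no use stated. The labels' protocols name a Chromium 3' kit and leave v2 or v3 unsettled, and 3' counts are not scaled by length, so levels are compared within a gene. The deposited matrices hold 8949 barcodes and 43134027 UMIs for PKM2ΔMAC, and 10054 barcodes and 54519921 UMIs for PKM2FL/FL.

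Cells with at least 300 genes and under 20% mitochondrial UMIs were kept, and Scrublet in scanpy 1.11.5 (expected rate 0.08) removed 347 PKM2ΔMAC and 508 PKM2FL/FL doublets. A cell joined a class with at least 3 distinct markers (2 for T cells, of the CD3 chains, and 4 for neutrophils), and cells with 3 markers of a second lineage were set aside. Lipid-associated macrophages were split off with 3 of their markers. T cell receptor constant genes, 4 in all, have no row. These scoring details were set after viewing the data. UMIs were summed per class and library and divided by the sum of all UMIs to give CPM. Intervals are exact Poisson (levels), exact conditional (ratios) and Clopper-Pearson (shares), at 95%, and no p-value was computed. A ratio was counted with at least 100 UMIs in both libraries together and at least 50 cells in each, and called at 1.5-fold. The ratio step was tested on simulated counts.

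The members, lists and markers were chosen with earlier results of these data known. Named were all members, the 1 or 2 genes of each list with the highest level in a class, those at least 2-fold apart, and the 3 genes most like each member among genes with at least 500 UMIs. Ltbp1, Lrrc32, Egf, Smad7, Adam17 and the Areg-rich cluster were named after their values were seen. Alternatives changed doublets, cell filters, marker number, the gate (37 clusters from 2000 variable genes), averaging, depth and fold. Genes with more than 1 row were left out.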

Additional observations from a re-analysis of the deposited data

How the results depend on the processing

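Over 37 pairs of a member with a class or with all cells, 279 single values were recomputed. Each was set against the interval of the main ratio, which does not cover the added counting error of thinned cells. Of these values, 240 stayed within that interval, 38 moved outside it and 1 called ratio changed direction, and the cause was not tested. That was Osm in type 2 dendritic cells, with a ratio of 0.943 when 1 more marker was required of a cell. Another 20 values, of ratios within 1.5-fold, lay on the other side of 1, of which 8 were with cells thinned, among them Thbs1 in neutrophils (0.802), Igf1 in Kupffer cells (0.763) and Tgfbi in type 2 dendritic cells (1.06). Of the 27 ratios within 1.5-fold, 11 passed 1.5-fold under some setting, and 10 of these did so with cells thinned, on far fewer UMIs. Of the 10 ratios called at 1.5-fold, 3 kept the call under every setting run, which were Pdgfa over all cells (1.55 to 2.22), Pdgfa in NK or ILC1 cells (1.57 to 5.39) and Areg over all cells (0.591 to 0.654), and 7 lost it under some setting. Called ratios over all cells were run under 6 settings and those in a class under 8. A change of marker number or of the gate to clusters does not bear on all cells. None of the settings evened out the numbers of cells per class between the libraries. The count of members higher over all cells, 1, was 0 at 2-fold. The count lower over all cells, 2, was 1 with the mean of the cells' own CPM and 0 at 2-fold. Within classes, the count of pairs higher in the ΔMAC library, 4, was 1 with 1 more marker, 1 with clusters in place of the gate and 2 at 2-fold. The count lower, 3, was 1 with 1 more marker, 5 with clusters, 7 with cells thinned to 500 UMIs and 1 at 2-fold. The number of members with the same class of highest CPM, 7, was 4 with cells thinned. The median share of the class with the most UMIs of a member, 30.6% in the ΔMAC library, was 46.0% with clusters and 40.1% with cells thinned. In the FL/FL library it was 32.8%, and 20.7% with 1 more marker, 42.9% with clusters and 29.4% without the cell with most UMIs of each member. Leaving out that cell, and the use of classes of at least 100 cells for the counts within classes, were chosen after seeing the data. No paired analysis was possible because there is 1 library per genotype, so no pair of replicates exists. Depth limits Timp1 and Pdgfc, and the stromal classes rest on few cells.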
